A study of Mus musculus with 8 samples.

Results

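Short H3K36me3 peaks were defined as listed H3K36me3 regions below 12 kb that lay outside chromosomes 13 and 18 and shared no base with a listed H3K36me2 region. This rule gave 547 of the 4999 H3K36me3 peaks. Of the 659 listed peaks below 12 kb, 42 were on chromosome 13 or 18 and 71 overlapped H3K36me2, with 1 peak in both sets. The rule used length and position, and no signal value. The series measured 3 histone marks by ChIP-Rx, chromatin immunoprecipitation sequencing with a Drosophila spike-in that sets the scale between libraries. Both compared groups were C3H10T1/2 cells, a line of mesenchymal progenitors from C3H mouse embryo, at passages 10 to 15. The K36M cells stably expressed FLAG-HA-tagged H3.3 in which lysine 36 is replaced by methionine, and the WT cells stably expressed FLAG-HA-tagged wild-type H3.3. In both lines the tagged histone came on top of the cells' own H3 genes. Each mark had 1 library per genotype, so no difference here has a replicate check and no test between genotypes was possible.

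H3K36me3 is laid down by SETD2, which travels with elongating RNA polymerase II, so the mark usually covers the transcribed part of a gene and its extent follows the gene's length. Lysine-to-methionine histones act as inhibitors of the methyltransferases that normally modify that lysine. H3K36me2 is made largely by NSD enzymes over genes and intergenic chromatin, and H3K27me3 by Polycomb repressive complex 2 over silent chromatin. Genes could not be named, because no annotation of the build of these coordinates (mm9) was used here, and no sequence is printed for the same reason.

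The values are reads in a peak scaled to the spike-in by the authors, called normalized reads below. In each column all values were whole multiples of 1 step, 0.22 in K36M and 0.39 in WT, and dividing by the step gave reads. The median short peak held 212 reads in K36M and 380 in WT, against 1038 and 1947 for the 3828 peaks of 12 kb or more that met the same exclusions (longer peaks below). Intervals of single ratios are exact Clopper-Pearson intervals at 95% from these reads, and cover counting error only. Intervals of medians come from the ranks of the peaks at the same level. They treat peaks as independent draws and do not stand for differences between cultures.

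H3K36me3 was lower in K36M than in WT in all 547 short peaks, as it was in all 4999 listed H3K36me3 peaks. The K36M values ran from 4.18 to 160.82 normalized reads with a median of 46.6, and the WT values ran from 29.25 to 518 with a median of 148. Summed over the short peaks, the signal was 27802 normalized reads in K36M and 85203 in WT, or 32.6% of the WT level. The median log2 ratio of K36M to WT was −1.64 (−1.67 to −1.61), which is 3.12-fold lower. A loss of 2-fold or more was measured in 530 short peaks (96.9%), against 98.5% of all listed H3K36me3 peaks. A loss of 3-fold or more was measured in 317 (58.0%), against 70.3% of all peaks, and of 4-fold or more in 68 (12.4%), against 9.96%. All peaks include the short ones. The shares at both ends moved with the mean value of both genotypes. Among the 274 short peaks with the higher means, 272 (99.3%) were at least 2-fold and 27 (9.85%) at least 4-fold lower, close to the shares of all peaks. At 3-fold or more there were 162 (59.1%), still below the 70.3% of all peaks. Among the 273 with the lower means, which rest on fewer reads, 258 (94.5%) were at least 2-fold and 41 (15.0%) at least 4-fold lower.

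The median loss in short peaks was slightly smaller than in longer peaks, and the spread was wider. The longer peaks' median log2 ratio was −1.74 (−1.74 to −1.73), so the short peaks' median was 0.09 higher. The SD over peaks was 0.34 in short and 0.22 in longer peaks, and counting error alone would give 0.14 and 0.06. Beyond counting, an SD of 0.31 remained in short and of 0.21 in longer peaks. The short peaks reached from 1.61-fold to 14.7-fold lower. At the length limit itself the values joined without a step: the 63 short peaks from 11 kb up had a median of −1.72, and the 68 longer peaks under 13 kb had −1.68. The peaks below 12 kb that the rule left out had higher ratios: −1.32 at the median for the 42 on chromosomes 13 and 18, and −1.39 for the 71 that overlapped H3K36me2.

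The ratio differed with length mainly among the shortest peaks. The 294 short peaks below 8 kb had a median log2 ratio of −1.61 (−1.65 to −1.54), the 122 from 8 to under 10 kb −1.66 (−1.70 to −1.61), and the 131 from 10 kb up −1.71 (−1.77 to −1.64). Within the first class, the 108 peaks below 4 kb, a bound chosen after the values were seen, had −1.43 (−1.52 to −1.35), or 2.69-fold lower. The 186 peaks from 4 to under 8 kb had −1.67 (−1.72 to −1.62), close to all other short peaks. Peaks below 4 kb held a median of 88 reads in K36M and 136 in WT, and their SD beyond counting was 0.39. The 439 short peaks of 4 kb or more were 3.18-fold lower at the median, 0.07 above the longer peaks on the log2 scale.

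The shortest regions in the table were 1.2 kb long, a length shared by 13 short peaks, of which 3 are given, the first when chromosome names are sorted as text. At chr10:5744400-5745599 the values were 9.90 normalized reads in K36M and 35.5 in WT, a ratio of 0.279 (0.191 to 0.403). At chr10:11329000-11330199 they were 19.6 in K36M and 36.7 in WT, a ratio of 0.534 (0.395 to 0.721). At chr12:18140000-18141199 they were 13.6 and 36.7 normalized reads in K36M and WT, a ratio of 0.372 (0.266 to 0.518). The WT values of these 3 regions were nearly equal, and the counting intervals of their ratios overlapped, each resting on few reads.

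Per kb, short peaks carried more signal than longer peaks in both libraries. Their median density was 6.91 normalized reads per kb in K36M and 21.1 in WT, against 5.55 in K36M and 18.5 in WT for longer peaks. The quartiles of short peaks were 5.40 and 9.10 per kb in K36M and 18.3 and 26.0 in WT. Peaks below 4 kb were denser than the rest, with medians of 9.32 per kb in K36M and 25.4 in WT, against 6.47 and 20.6 for short peaks of 4 kb or more. Neither the peak caller nor its threshold is given in the sources used here. Whether a short region had to be denser to be listed was not tested.

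**Figure D1:**
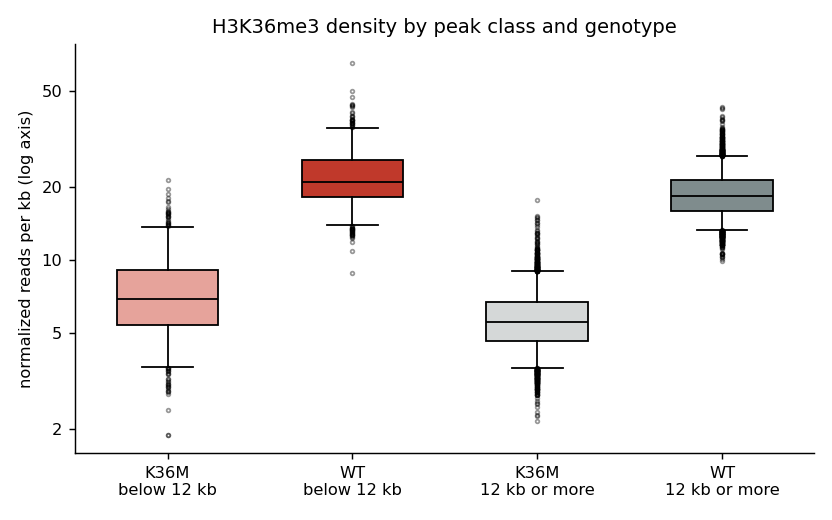
H3K36me3 density in normalized reads per kb on a log axis, for short peaks in K36M and WT and for longer peaks in K36M and WT; boxes are quartiles with the median, whiskers run from percentile 5 to 95, and dots are peaks beyond them. Short peaks lie above longer peaks in both libraries, with medians of 6.91 and 21.1 against 5.55 and 18.5 per kb.

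Short peaks with a high mean density of both genotypes had higher ratios than those with a low one. All H3K36me3 peaks were divided into 4 equal classes by this mean, which contains both values of the ratio. A high K36M value, counting error included, raises both the mean and the ratio. The classes therefore cannot show whether density itself went with the loss. Of the short peaks, 255 (46.6%) were in the densest class, against 797 (20.8%) of the longer peaks. In that class the median log2 ratio was −1.49 in short and −1.65 in longer peaks. In the sparsest class, with 75 short peaks, it was −1.87 in short and −1.79 in longer peaks. The difference between short and longer peaks was therefore 0.16 in the densest class, 0.06 and −0.04 in the middle classes, and −0.07 in the sparsest. Without the short peaks below 4 kb it was 0.09 in the densest class, over 175 short peaks, and −0.07 in the sparsest. The sign of the difference was thus not the same in all classes. Density was not equal within them. In the densest class short peaks had medians of 9.38 per kb in K36M and 26.5 in WT, against 7.94 and 24.5 for longer peaks. In the sparsest they had 3.91 and 14.5, against 4.21 and 14.7. Short and longer peaks of equal density were therefore not compared.

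The short peaks with the highest WT values lost about the typical share of the mark. The first was chr15:5066600-5078399, an 11.8 kb region with 145 normalized reads in K36M and 518 in WT, 3.56-fold lower. The second, at chr15:79906000-79913799, also had the highest WT density. It held 153 normalized reads in K36M and 511 in WT over 7.8 kb, or 19.6 and 65.6 per kb, and was 3.34-fold lower. The third, chr11:97632200-97643599, 3.47-fold lower, lay 5.2 kb from a 112.2 kb domain that was 3.70-fold lower and less dense in WT, at 22.4 normalized reads per kb against 43.4 in the short peak. The fourth, at chr12:111922600-111934199, was 3.11-fold lower. The other 3 of the 4 densest regions were short even for this set. The 2.4 kb region chr2:152562200-152564599 was 4.09-fold lower. The 1.2 kb region chr7:88565200-88566399 had 22.4 normalized reads in K36M and 56.55 in WT, 2.52-fold lower, and the 1.4 kb region chr11:108872200-108873599 had 24.6 in K36M and 61.6 in WT.

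The largest losses were sought among the 274 short peaks whose mean value of both genotypes was not under the median of such means. The 6 lowest ratios there were 4.78-fold to 9.38-fold lower, and 3 of these regions were on chromosome 11 and 2 on chromosome 15. The first was chr15:40926200-40937399, an 11.2 kb region with 27.1 normalized reads in K36M and 254 in WT, a ratio of 0.107 (0.087 to 0.129). An H3K27me3 peak 6.8 kb away held 174 normalized reads in K36M and 506 in WT, so that mark was also lower there. The nearest longer H3K36me3 peak was 4.88-fold lower. The second, at chr15:50487000-50496999, had 30.6 normalized reads in K36M and 169 in WT, a ratio of 0.181 (0.148 to 0.219), and its nearest longer peak was 4.74-fold lower.

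The other 4 were 4.78-fold to 5.20-fold lower, and their counting intervals overlapped. The dense 6.0 kb region chr3:66024200-66030199 had 47.5 normalized reads in K36M and 247 in WT, and its nearest longer peak, 259.6 kb away, was 2.71-fold lower. The regions chr11:53762400-53773999, chr11:21456400-21467599 and chr11:75831000-75840399 were 4.96-fold, 4.92-fold and 4.78-fold lower. Their nearest longer peaks were 4.52-fold, 4.13-fold and 4.75-fold lower. In 5 of the 6 places, then, the nearest longer peak was at least 4-fold lower as well, against 373 of all 3828 longer peaks (9.74%). All 5 were on chromosomes 11 and 15, whose longer peaks had the lowest medians of log2 ratio, −1.84 and −1.86. The neighbour of chr11:75831000-75840399 lay 17 kb away, and the others of the 5 lay 140.6 to 201.6 kb away.

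The 6 highest ratios in the same set were 1.61-fold to 2.11-fold lower. The 10.6 kb region chrX:4244000-4254599 had 132 normalized reads in K36M and 213 in WT, a ratio of 0.620 (0.551 to 0.697), the highest of all short peaks. At chr8:19957800-19964399 the values were 82.5 in K36M and 165 in WT, 2.00-fold lower. The regions chr10:21714600-21721999 and chr6:108608400-108618199 were 2.06-fold and 2.08-fold lower. Their counting intervals, 0.428 to 0.553 and 0.419 to 0.550, overlapped that of the region on chromosome 8, 0.434 to 0.576. The 9.2 kb region chr5:15036000-15045199 had 161 normalized reads in K36M and 336 in WT, 2.09-fold lower, and held the highest K36M value of any short peak. The last, at chr17:33105800-33117399, was 2.11-fold lower.

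Short peaks, mainly those below 4 kb, lay somewhat farther from other H3K36me3 peaks than longer peaks did. The median distance between edges to the nearest other listed H3K36me3 peak was 50.4 kb for short peaks (quartiles 15.5 and 151 kb) and 40.9 kb for longer peaks. For the 108 short peaks below 4 kb it was 144.3 kb, and for the 439 of 4 kb or more it was 43 kb. In 189 short peaks (34.6%) the nearest neighbour was 100 kb or more away, against 1106 longer peaks (28.9%). At least 1 Mb separated 23 short peaks (4.20%) and 88 longer peaks (2.30%) from any other. A neighbour within 20 kb on both sides was found for 25 short peaks (4.57%), against 147 longer peaks (3.84%). No neighbour within 20 kb was found for 375 short peaks (68.6%), against 2523 longer peaks (65.9%). The nearest neighbour was a peak of 12 kb or more for 456 short peaks (83.4%) and another short peak by the same rule for 81 (14.8%).

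No 2 peaks of the table lay closer than 5.2 kb, and the same smallest gap was found within the H3K36me2 and H3K27me3 tables. No short peak therefore had a neighbour within 5 kb. The 26 short peaks with a gap under 6 kb included 11 tied at 5.2 kb, which were 2.17-fold to 3.85-fold lower. The 3 of these given here come first when chromosome names are sorted as text, chr1:129779000-129788599, chr11:97632200-97643599 and chr12:3173800-3179599. They were 3.48-fold, 3.47-fold and 2.84-fold lower. The most isolated was the 7.2 kb region chrX:131121200-131128399, which was 5944.2 kb from the nearest other peak and held 39.2 normalized reads in K36M and 105 in WT, 2.69-fold lower. Next came the 1.2 kb region chr15:17630600-17631799 and the 1.8 kb region chr2:41841600-41843399, which were 3.90-fold and 2.32-fold lower.

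Distance from other peaks went with small differences in the ratio. The 172 short peaks within 5 to under 20 kb of another peak had −1.67 as their median log2 ratio (−1.75 to −1.63). The 186 peaks at 20 to under 100 kb had −1.63 (−1.68 to −1.60), and the 189 at 100 kb or more had −1.58 (−1.66 to −1.50). Longer peaks had −1.76, −1.75 and −1.68 in the same classes, so the order was not particular to short peaks. Isolated short peaks were also shorter, with a median of 6.4 kb against 7.6 and 8.0 kb in the closer classes. Among short peaks below 4 kb the medians were −1.46, −1.35 and −1.46, with no order by distance, and among those of 4 kb or more they were −1.70, −1.65 and −1.65.

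**Figure D2:**
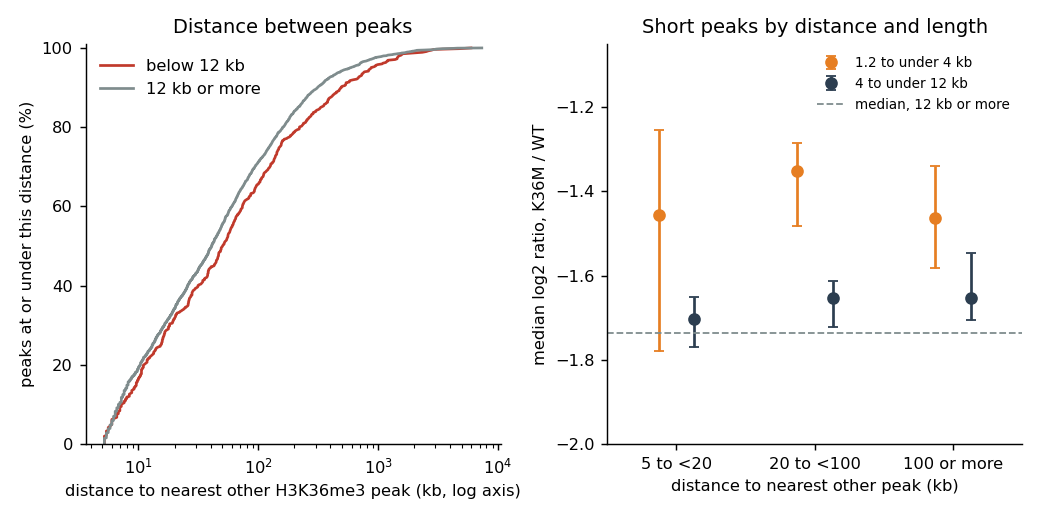
Left, cumulative percentage of short and of longer peaks by distance to the nearest other H3K36me3 peak, in kb on a log axis. Right, median log2 ratio of K36M to WT with its rank interval for short peaks below and from 4 kb, in 3 distance classes; the dashed line is the median of longer peaks, −1.74, and the medians below 4 kb lie above it at each distance.

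Each short peak was also set against the nearest longer peak on its chromosome. In the 308 pairs less than 100 kb apart, short peaks had a median log2 ratio of −1.66 and their longer neighbours −1.76. The median difference within pairs was 0.08 (0.03 to 0.11), and the short peak had the higher ratio in 182 pairs (59.1%). Over all 547 pairs it was 0.10 (0.07 to 0.13), with the short peak higher in 331 (60.5%). Within 100 kb the short peak was denser than its neighbour in 212 pairs (68.8%) in K36M and in 212 in WT, with medians of 6.56 per kb against 5.63 for the neighbours in K36M and 20.9 against 18.5 in WT. Ratios of the pairs within 100 kb were weakly related (Pearson r = 0.30, Spearman rho = 0.30, over 308 pairs that share both libraries), and their mean densities less so (r = 0.20, rho = 0.21).

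The short peaks lay on 18 chromosomes, with 14 to 51 on each. Their median log2 ratio was above that of longer peaks on 15 of the 18. The exceptions were chromosomes 9, 15 and X, with differences of −0.03, −0.04 and −0.02. The largest differences were 0.20 on chromosome 14, which had 14 short peaks, and 0.18 on chromosome 5, which had 40. Chromosome 15 had the lowest median of short peaks, −1.90 (33 peaks), and its longer peaks also had the lowest median, −1.86. Chromosome X had the highest, −1.43 (−1.58 to −1.30 by rank, 21 peaks), and its longer peaks had −1.41.

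Chromosome X also differed in the share of its listed H3K36me3 peaks that were short. Short peaks made up 31.3% of its 67 listed peaks, against 7.45% to 15.7% on the other 17 chromosomes. By signal their share was small: in WT the 21 short peaks of X summed to 2479 normalized reads, and its 45 longer peaks to 28941.5. The median distance from a short peak to the next H3K36me3 peak was 447 kb on X, the longest of the 18. On chromosome 17 it was 15.8 kb, the shortest. On the autosomes alone, the median log2 ratio of short peaks was −1.65.

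**Figure D3:**
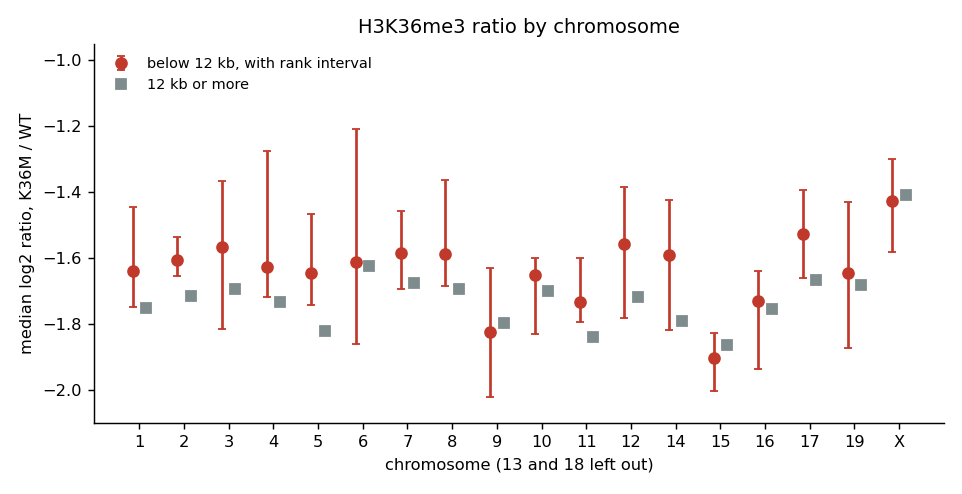
Median log2 ratio of K36M to WT for short peaks (circles, with rank intervals) and for longer peaks (squares) on each of 18 chromosomes. Circles lie above squares on 15 chromosomes; both are lowest on chromosome 15 and highest on X.

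Of the short peaks, 10 (1.83%) shared bases with a listed H3K27me3 peak, against 11 of the 3828 longer peaks (0.287%), and 7 of the 10 lay wholly inside it. These 10 had a median log2 ratio of H3K36me3 of −1.19 (−1.54 to −0.97), or 2.28-fold lower, and the other 537 had −1.65. The 10 were also shorter, with a median length of 4.0 kb against 7.6 kb. They were denser too, at 11.8 normalized reads per kb in K36M and 26.5 in WT, against 6.90 and 20.9. H3K27me3 was higher in K36M in 8 of the 10 overlapped H3K27me3 peaks, against 375 of all 999 in its table. Among the 8, the H3K27me3 ratio was only 1.02 (0.932 to 1.12) at chr4:45206200-45210199, which shared 400 bp. The lower ones had ratios of 0.969 at chr1:87909600-87912599 and 0.919 at chr15:75563400-75565199. The 4.0 kb region chr1:33905200-33909199 had 46.6 normalized reads of H3K36me3 in K36M and 91.3 in WT, 1.96-fold lower. The H3K27me3 domain around it had 1306 in K36M and 692 in WT. A second region, chr1:172999600-173009599, was 2.31-fold lower in H3K36me3, and its H3K27me3 peak had 143 normalized reads in K36M and 99.4 in WT. The 4.0 kb region chr8:19724200-19728199 was 1.85-fold lower, with H3K27me3 of 165 in K36M and 133 in WT.

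In 2 cases the short peak had the same start and end in the H3K36me3 and the H3K27me3 tables. At chr5:15036000-15045199, H3K27me3 was 235 normalized reads in K36M and 115 in WT, a ratio of 2.04 (1.84 to 2.26). At the 3.4 kb region chr7:67004400-67007799, H3K36me3 was 53.7 in K36M and 120 in WT, and H3K27me3 was 63.2 and 39.1 in K36M and WT. Both regions thus had less H3K36me3 and more H3K27me3 in K36M on the spike-in scale, with smaller H3K36me3 losses than the median short peak.

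Short peaks near other marks had higher H3K36me3 ratios where the ratios of those marks were higher. Within 20 kb of an H3K27me3 peak there were 48 short peaks beside 46 different H3K27me3 peaks, the 10 that shared bases included. Across them the log2 ratios of H3K36me3 and of the nearest H3K27me3 peak had a Pearson r of 0.77 and a Spearman rho of 0.69. Without the region of lowest H3K36me3 ratio they were 0.72 and 0.67, and without chromosomes 5 and 15, with 34 short peaks left, 0.67 and 0.54. Where H3K27me3 was at least 1.5-fold higher in K36M, 8 short peaks, 4 of them within chr5:14902800-15062799, were 2.04-fold lower in H3K36me3 at the median. Where it changed by less, 37 were 2.96-fold lower, and the 3 beside H3K27me3 peaks at least 1.5-fold lower were 3.25-fold to 9.38-fold lower. Of the 8 above, chr5:15036000-15045199 and chr5:15061200-15062799 were set against the same H3K27me3 peak. Some of the 8 had similar H3K36me3 reads before scaling, 600 in K36M and 546 in WT at chrX:4244000-4254599, and 212 and 234 at chr1:33905200-33909199. Equal reads give the ratio of the steps, 0.22 in K36M to 0.39 in WT. All 8 were 1.61-fold to 2.76-fold lower, and what the reads stand for was not tested.

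The H3K36me2 peaks beside short peaks fell into separate sets by their own loss, seen in the values and divided at 3-fold. Of the 31 within 20 kb of an H3K36me2 peak, 8 stood beside peaks in which H3K36me2 was 1.58-fold to 2.33-fold lower, and their H3K36me3 was 2.13-fold lower at the median (1.75-fold to 2.76-fold). The other 23 stood beside peaks in which H3K36me2 was 3.36-fold to 5.10-fold lower, and their H3K36me3 was 3.56-fold lower at the median (2.58-fold to 5.47-fold). The H3K36me3 losses of the sets overlapped. Within the larger set the ratios of the marks were hardly related (r = 0.14, rho = 0.09). The 8 included 3 regions within chr5:14902800-15045199, and chr1:173445000-173447799. All of these were also among the 8 beside H3K27me3 peaks at least 1.5-fold higher in K36M. Also included were chr4:145133400-145137199 and chr4:147176600-147185999. At the first of these on chromosome 4, H3K36me3 was 59.0 in K36M and 103 in WT, from 268 and 265 reads. The H3K36me2 peak 9.6 kb away had 344 in K36M and 581 in WT. The marks come from separate precipitations and libraries of the same cell lines. The input libraries were not analysed here, and what the marks share at these places was not tested.

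**Figure D4:**
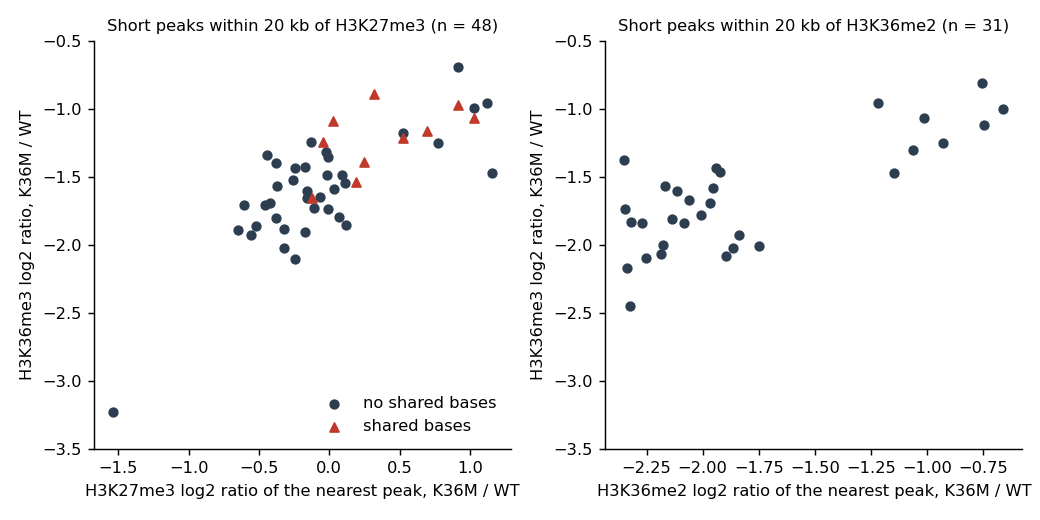
Each point is 1 short peak within 20 kb of a listed H3K27me3 peak (left, 48) or H3K36me2 peak (right, 31); horizontal axes give the log2 ratio of K36M to WT of that nearest peak and vertical axes that of the short H3K36me3 peak. Triangles share bases with the H3K27me3 peak and circles do not. On the left high H3K27me3 ratios go with high H3K36me3 ratios. On the right 8 points stand apart from 23 in the H3K36me2 ratio, while their H3K36me3 ratios overlap.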

How the data were processed

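ChIP-Rx libraries of H3K36me3, H3K36me2 and H3K27me3 from K36M and WT cells were used, 1 library per mark and genotype. Per the labels' protocols, mononucleosomes from micrococcal nuclease digestion were mixed before precipitation with Drosophila S2 chromatin equal to 5% of the mouse chromatin. The deposited values are a signal, reads per peak which per the file headers the authors normalized to the spike-in. Per the submitters' processing notes, the builds were mm9 and dm6 and the tools included Bowtie 1.0.0. No peak caller, calling library or scaling formula is given in the sources used here. The tables may list only part of the called peaks.

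Starts are multiples of 200 bp. Positions follow the deposited tables, and 1 must be added to start and end to count bases from 1. Lengths were end minus start plus 1, and distances are the bases between edges. Ratios are K36M over WT with no pseudocount or filter on low values. Reads are values divided by the greatest common divisor of a column in hundredths. Longer neighbours were sought among peaks under the same chromosome and H3K36me2 exclusions, and nearest peaks among all listed. Named regions were, among the 274 short peaks with the higher mean of both genotypes, the 6 lowest and 6 highest ratios. Among all short peaks they were the 4 highest WT values and WT densities, the 3 shortest, closest and most isolated, and the 4 with the longest stretch shared with H3K27me3; 30 were distinct. The peaks, classes and rules were chosen with earlier results of these data known. Calculations were tested on simulated counts. Python 3.11.15, numpy 2.4.6, pandas 2.3.3, scipy 1.17.1 and matplotlib 3.10.9 were used.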

Additional observations from a re-analysis of the deposited data

How the results depend on the processing

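All sizes rest on the spike-in scale and on 1 library per genotype. With both libraries scaled to the same total, the short peaks' median log2 ratio reversed to 0.072 by construction, and 4, 1 and 1 short peaks were at least 2-fold, 3-fold and 4-fold lower. A pseudocount at the 5th percentile of all values, 55.2 normalized reads, is large for short peaks. With it the median was −0.98, the difference from longer peaks 0.52, the difference from the nearest longer neighbour 0.52, and the 3 counts were 251, 1 and 0. Among the 274 short peaks with the higher means, the counts were 272, 162 and 27, or 99.3%, 59.1% and 9.85% of them, against 96.9%, 58.0% and 12.4% of all short peaks. Spike-in factors rounded to 2 decimals allow medians from −1.70 to −1.59. The median distance to the nearest peak was 79.7 kb between centres and 60.6 kb to peaks of 12 kb or more. Within 5 kb of an H3K27me3 peak there were 22 short peaks. Without the peaks below 4 kb, an alternative chosen after seeing the data, the median was −1.67 and the difference from longer peaks 0.067. The other alternatives, among them length limits of 10 and 15 kb, autosomes only, and keeping chromosomes 13 and 18 or the peaks that overlap H3K36me2, kept each value within its interval or each count within 1.5 times. No paired analysis was possible because each group has 1 library.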

Other observations

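Some short peaks stood in runs, each less than 100 kb from the next short peak. There were 11 runs of 3 or more, with 36 short peaks in all, and 4 of the runs were on chromosome 17. The 4 short peaks within chr17:33018400-33159199 were 2.11-fold to 2.78-fold lower, and the 4 within chr17:6493200-6620599 were 2.17-fold to 2.75-fold lower. The 3 within chr17:56032600-56108399 were 3.49-fold to 3.63-fold lower. The 4 short peaks within chr5:14902800-15062799 were 1.94-fold to 2.76-fold lower, with median densities of 14.3 normalized reads per kb in K36M and 31.2 in WT. The 3 within chr11:53584800-53773999 were 2.98-fold to 4.96-fold lower. The fold losses of the run at chr17:56032600-56108399 did not overlap those of the other 2 runs given for chromosome 17. The runs were defined after the values were seen.

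The lowest ratio of all short peaks fell outside the set with higher values. It was the 2.2 kb region chr9:31937400-31939599, with 4.18 normalized reads in K36M and 61.6 in WT, or 19 and 158 reads, a ratio of 0.068 (0.040 to 0.109). The nearest longer peak, 286.0 kb away, was 5.24-fold lower. The regions at chr16:91454600-91455999 and at chr11:46886000-46887799 (1.4 kb and 1.8 kb long) were 7.37-fold and 6.72-fold lower, from 19 and 24 reads in K36M. These 3 were chosen after their values were seen.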
